A study of Rattus norvegicus with 12 samples.

Results

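The interferon responsive genes described here are 43 named genes whose transcription is known to be raised by type I or type II interferon. They were named by symbol, with earlier results of these data known. A gene was measured where a probe set of the array was annotated to that symbol and no other. By this rule 38 of the 43 genes were measured, by 47 probe sets, among 14218 genes of the array with a probe set of 1 symbol. Of the 38 genes, 37 lay above the filter on signal and were tested among 9459 genes in all. Oas1b lay below the filter, and Oas2, Trim21, Xaf1, Gbp5 and Ifi47 were not analysed here. Where several probe sets carried 1 symbol, which was so for 8 of the genes, the one with the highest mean stood for the gene.

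Livers of Sprague-Dawley rats were measured on Affymetrix arrays, 1 array for each animal, in 4 groups of 3. The normal group had a normal diet (animals 2, 3 and 4), and the HFD group had a high fat diet (animals 24, 36 and 87). Rats of the QHD group (animals 45, 46 and 47) had the high fat diet for 4 weeks and then, for 4 weeks more on the same diet, a daily gavage of 0.1 ml/kg of Qushi Huayu Decoction, a Chinese herbal decoction. Rats of the GC group (animals 35, 37 and 55) had the same course with a mixture of geniposide and chlorogenic acid in place of the decoction. Both treated groups therefore also carried the high fat diet. The sample names give 4 weeks for every group, and the labels do not say for how long in all the HFD group was fed, whether the HFD and normal groups had a gavage, or the age of any animal.

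Interferons are secreted signals of infection and inflammation. Type I interferons act through the receptor IFNAR and a complex that holds STAT2 and IRF9, which binds the interferon-stimulated response element (ISRE) of antiviral genes, while the type II interferon, interferon gamma, acts through the receptor IFNGR and the gamma-activated site (GAS) of its target genes. Interferon gamma is made mainly by T and NK cells, and it is the classical inducer of IRF1, IRF8, the guanylate-binding proteins and the genes that load peptides on MHC class I, although many of the genes respond to both types. In liver the cells that respond include hepatocytes, Kupffer cells and endothelial cells.

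The 2 binding elements can be read in the promoters of the genes. Of the 43 genes, 36 have a promoter window in the RefSeq sequences of rat build GRCr8, from 250 bases before the start of the gene to 50 after it. The ISRE-like motif was searched as GAAANNGAAA on both strands and the GAS-like motif as TTCNNNGAA, which reads the same on both strands. The ISRE-like motif stood in 24 of the 36 windows (66.7%), against 3.92% of all 33469 windows of the same length, and the GAS-like motif in 13 (36.1%) against 8.87%. Both stood in 8 of the 36 windows. The windows of Ubd, Psmb9, Mx1, Stat2, Oasl, Trim25 and Ifi35 held no match to either, which says only that these letters are not in those windows. A match is a description of the sequence and was not tested for binding.

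The windows of 5 genes, picked from those with a match, are printed here 5′ to 3′ on the strand of the gene, with the matches in capitals. Those of Ubd and Psmb9, named above as without a match, are not printed. They are Gbp2 (chr2:234005477-234005776, plus strand), Batf2 (chr1:212897096-212897395, plus strand) and Psmb10 (chr19:50743243-50743542, minus strand), with ISRE-like matches, Irf8 (chr19:65699034-65699333, plus strand), with 2 GAS-like matches, and Oas1a (chr12:41330216-41330515, plus strand), with 1 GAS-like match and 2 ISRE-like matches that share bases.
Gbp2: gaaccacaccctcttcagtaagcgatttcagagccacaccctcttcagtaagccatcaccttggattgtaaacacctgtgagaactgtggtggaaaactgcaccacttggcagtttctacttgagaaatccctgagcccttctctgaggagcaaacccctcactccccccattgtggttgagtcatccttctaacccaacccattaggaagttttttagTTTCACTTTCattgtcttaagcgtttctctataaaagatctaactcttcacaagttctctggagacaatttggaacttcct
Batf2: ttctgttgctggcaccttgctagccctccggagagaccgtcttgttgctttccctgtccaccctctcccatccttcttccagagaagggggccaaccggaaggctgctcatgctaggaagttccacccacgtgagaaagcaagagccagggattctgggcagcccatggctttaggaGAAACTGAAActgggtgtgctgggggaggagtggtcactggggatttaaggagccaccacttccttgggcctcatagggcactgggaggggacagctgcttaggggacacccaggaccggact
Psmb10: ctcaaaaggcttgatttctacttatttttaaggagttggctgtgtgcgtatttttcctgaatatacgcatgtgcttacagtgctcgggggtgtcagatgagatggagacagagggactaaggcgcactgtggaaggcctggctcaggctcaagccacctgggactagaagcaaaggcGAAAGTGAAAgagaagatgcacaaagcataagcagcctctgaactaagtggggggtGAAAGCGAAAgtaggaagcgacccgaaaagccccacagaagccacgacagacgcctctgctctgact
Irf8: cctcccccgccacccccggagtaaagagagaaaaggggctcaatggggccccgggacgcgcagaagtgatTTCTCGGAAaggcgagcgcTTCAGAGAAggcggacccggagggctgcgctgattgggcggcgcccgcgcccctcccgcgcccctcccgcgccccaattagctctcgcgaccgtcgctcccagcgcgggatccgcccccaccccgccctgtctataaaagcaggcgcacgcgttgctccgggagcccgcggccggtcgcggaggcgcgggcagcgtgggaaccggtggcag
Oas1a: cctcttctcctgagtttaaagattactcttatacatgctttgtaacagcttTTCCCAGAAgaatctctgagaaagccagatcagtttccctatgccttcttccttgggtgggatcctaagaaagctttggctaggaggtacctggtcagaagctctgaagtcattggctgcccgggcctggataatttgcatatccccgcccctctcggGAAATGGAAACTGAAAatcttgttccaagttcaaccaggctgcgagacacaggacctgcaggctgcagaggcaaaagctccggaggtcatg

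In 3 windows a GAS-like match was followed on the strand of the gene, after 2 other bases, by an ISRE-like match. This arrangement, looked for on both strands after it had been seen in the members, stood in 7 of all 33469 windows (0.0209%), and 3 of the 7 were those of Igtp (chr10:42874929-42874957, plus strand), Irgm (chr10:33742599-33742627, minus strand) and Parp14 (chr11:78408043-78408071, plus strand). The stretches are shown with both matches in capitals.
Igtp: tcacTTCCAGGAAccGAAACTGAAAgcag
Irgm: tcgtTTCAAGGAAtaGAAACTGAAAccga
Parp14: gggtTTCCAGGAAatGAAAGTGAAAgaag

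Values are log2 signals as deposited, and every array had been scaled to the same trimmed mean, close to 500 on the linear scale. The array labelled normal diet 3 did not carry the expression of liver. Its hepatocyte markers had a median log2 signal of 6.23, where the other 11 arrays had 14.63 to 15.06, and the adipocyte markers stood at 14.12 there but at 6.94 to 9.01 elsewhere. It was left out, so the normal group here is 2 animals, and the counts of calls and of signs with it are given beside those without it. A gene passed, rose or fell where its limma p-value, adjusted by Benjamini-Hochberg over all 9459 genes, was under 0.05. The p-values measure the spread between animals, and none of the labels names a batch.

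Against the normal diet, the 37 genes are given here by role, and no test of a difference between roles was made. The genes of class I antigen processing and the inducible GTPases had higher mean signals in all 3 groups on the high fat diet. Of the 6 transcription factors, IRF1, IRF8, BATF2 and STAT2 did too, while IRF7 and IRF9 had lower means than normal animals 2 and 4. Of the genes with higher means, 7 rose in at least 1 group. None of the antiviral effectors or of the genes for RNA sensing and ubiquitin-like modification rose or fell. Most of their means lay below those of normal animals 2 and 4, which did not hold in HFD and GC with the array labelled normal diet 3 included. Ubd, which rose, also encodes a ubiquitin-like modifier but was placed with class I processing, so the absence of calls in the former role depends on that placement. In HFD against normal, 1 of the 37 genes rose (Ubd) and none fell, where 0.529% of all genes passed and 0.328% rose. In QHD against normal, 4 rose (Ubd, Irf8, Batf2 and Gbp2) and none fell, where 7.46% of all genes passed and 4.77% rose. In GC against normal, 7 rose (the same 4 with Psmb8, Psmb9 and Psmb10) and none fell, where 9.61% of all genes passed and 6.2% rose. Batf2, which is in the QHD and GC counts, passed the filter on signal only through the groups in which it was high. With the array labelled normal diet 3 included, the counts were 0, 0 and 2 (Irf8 and Psmb9). They also rest on the 2 normal animals. Without normal animal 2 they were 0, 1 and 1, Ubd in each case, and without normal animal 4 they were 2, 2 and 4. The HFD count was 3 without HFD animal 24 and 2 without QHD animal 47. The latter animal is in neither group of that comparison, but it enters the shared spread and the filter on signal. The QHD count was 2 without QHD animal 45, where Ubd rose and Trim25 fell, and 1 without QHD animal 46. The 3 comparisons share the same 2 normal arrays and so are not independent of each other.

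The animals of the groups did not overlap in more of the genes than passed, and the following counts include those that passed. In HFD against normal there was no overlap for 9 of the 37 genes with HFD higher, where the share of all genes was 17.5%, and for 3 with HFD lower, where it was 10.8%. In QHD against normal the counts were 10 higher and 7 lower, against 26.5% and 17.1% of all genes, and in GC against normal 15 higher and 3 lower, against 26.5% and 17.3%. The median log2 change over the 37 genes was -0.12 in HFD, -0.25 in QHD and 0.02 in GC against normal, where the median over all genes was 0.03, 0.05 and 0.05. The sign of these medians rested on single arrays. With all 12 arrays they were 0.27, 0.27 and 0.40, and without normal animal 4 they were 0.26, 0.06 and 0.44. The HFD median was 0.20 without HFD animal 87, the QHD median was 0.00017 without QHD animal 47, and the GC median was -0.13 without normal animal 2 and -0.11 without GC animal 35. For HFD against normal the median was 1.17 for the 6 class I processing genes, 0.94 for the 6 transcription factors (4 above 0 and 2 below) and 1.07 for the 3 GTPases. It was -0.24 for the 11 antiviral effectors and -0.43 for the 6 genes for RNA sensing and ubiquitin-like modification. Without HFD animal 36 the medians of class I processing, transcription factors and GTPases were 0.71, 0.67 and 0.38, and 2 of the 3 GTPases then had a change above 0. In every other setting with an animal left out, and with all 12 arrays, all 6 class I genes and all 3 GTPases had changes above 0 in the 3 comparisons with normal.

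**Figure D1:**
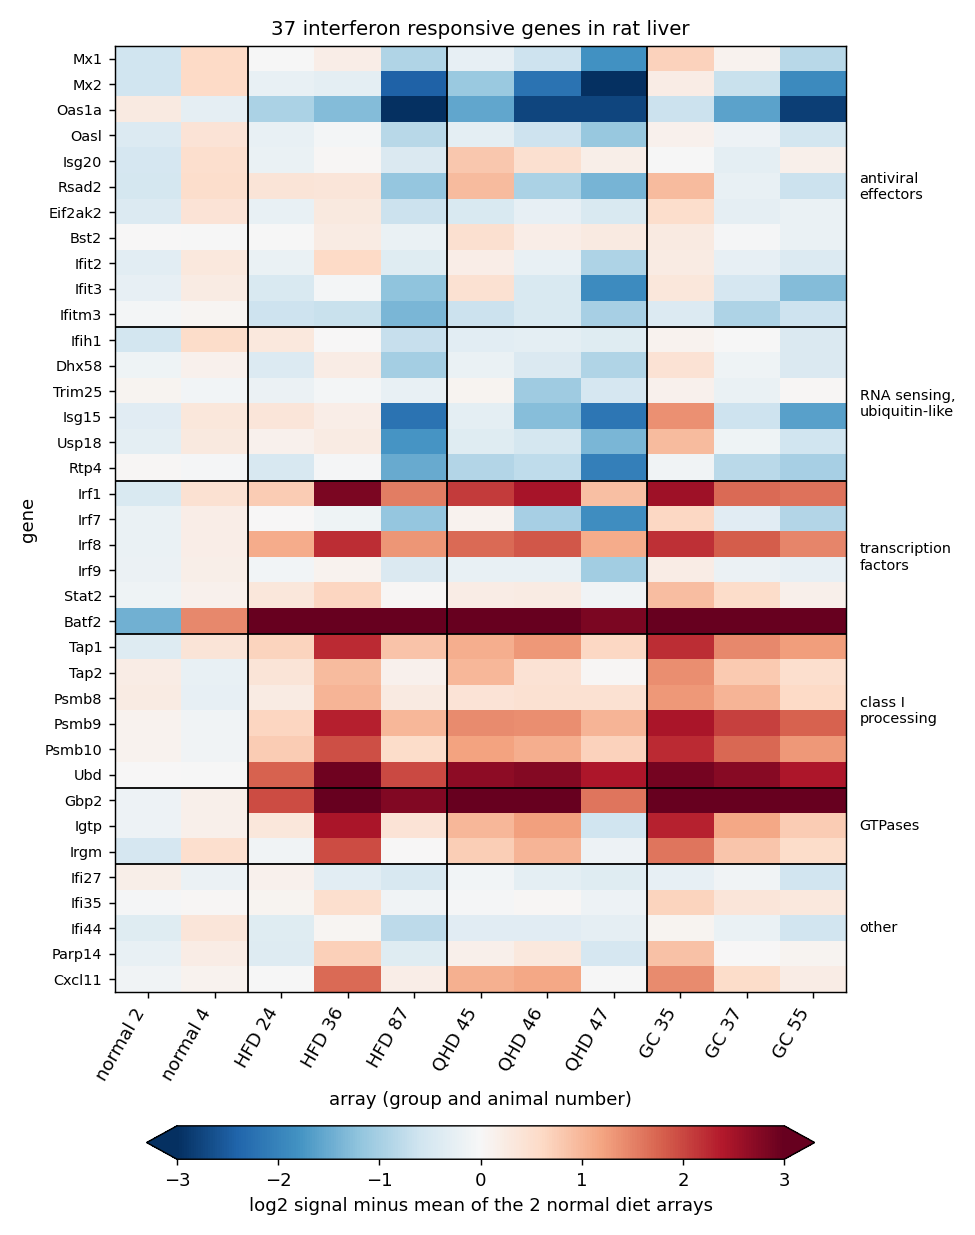
Each cell is the log2 signal of 1 gene (rows, ordered by role) on 1 array (columns) minus the mean of normal animals 2 and 4, with red for higher and blue for lower, and the colours end at 3 in either direction. The rows of Ubd, Batf2, Gbp2, Irf1, Irf8 and the proteasome subunits are red across the 3 groups on the high fat diet, while Mx2 and Oas1a are mostly blue.

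Among the genes of class I antigen processing, Ubd changed in every comparison with the normal diet. Ubd encodes FAT10, a ubiquitin-like modifier that marks proteins for the proteasome. Its log2 signals were 11.93 on both normal arrays, 13.69, 14.86 and 13.90 on the HFD arrays, 14.61, 14.67 and 14.35 on the QHD arrays and 14.79, 14.67 and 14.36 on the GC arrays. All 9 animals on the high fat diet lay above both normal animals. The mean rose by 2.22 ± 0.28 (log2 change ± SE, n = 3 against 2, adjusted p = 0.00969) in HFD, which is 4.66-fold. It rose by 2.62 ± 0.28 (adjusted p = 0.00206) in QHD and by 2.68 ± 0.28 (adjusted p = 0.00128) in GC. With the array labelled normal diet 3, whose Ubd signal was 8.25, the changes were 3.45, 3.84 and 3.90 and none passed (adjusted p = 0.454, 0.118 and 0.0701). Over all the alternative settings the adjusted p reached no more than those values. The HFD call was also lost without normal animal 2, without limma's moderation of the variances and with only the groups compared.

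Psmb8, Psmb9 and Psmb10 encode the 3 catalytic subunits that replace the constitutive ones in the immunoproteasome, the form of the proteasome induced by interferon gamma. The log2 signals of Psmb9 were 11.41 and 11.18 on the normal arrays, 11.95, 13.62 and 12.29 on the HFD arrays, 12.72, 12.70 and 12.31 on the QHD arrays and 13.74, 13.34 and 13.06 on the GC arrays. Those of Psmb10 were 9.78 and 9.58 in normal, 10.44, 11.62 and 10.23 in HFD, 10.89, 10.76 and 10.36 in QHD and 11.92, 11.40 and 10.99 in GC. In both genes every animal on the high fat diet lay above both normal animals, and HFD animal 36 lay with the GC animals rather than with the other HFD animals. In GC against normal, Psmb9 rose by 2.09 ± 0.41 (adjusted p = 0.0138), Psmb10 by 1.76 ± 0.39 (adjusted p = 0.0221) and Psmb8 by 0.98 ± 0.26 (adjusted p = 0.0405). In HFD against normal the changes were 1.32 ± 0.41, 1.08 ± 0.39 and 0.51 ± 0.26, and none passed (the lowest adjusted p, that of Psmb9, was 0.160). In QHD against normal they were 1.28, 0.99 and 0.44 and none passed, with an adjusted p of 0.0838 for Psmb9. Psmb9 and Psmb10 did pass in QHD with only the groups compared and without HFD animal 36, and Psmb9 also with weights for the quality of each array. That these subunits passed in GC and not in HFD does not show that the groups differ, and the direct comparison is given below.

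The rise of Psmb8 in GC was the least firm of these. Its normal animals, at 12.19 and 11.71, stood about as far apart as the means of HFD and GC, which were 12.46 ± 0.45 and 12.93 ± 0.36 (SD, n = 3). It did not pass without normal animal 2 or 4, without QHD animal 45 or 46, without GC animal 35 or 37, or with the array labelled normal diet 3. Without moderation of the variances it did not pass either. Psmb10 lost its call without either normal animal, without GC animal 35 or with all 12 arrays, and Psmb9 without either normal animal. Both also lost it without moderation of the variances. Of the 3 constitutive catalytic subunits, Psmb5 and Psmb7 were tested and neither passed in any of the 6 comparisons. In HFD against normal Psmb5 had a change of -0.17 ± 0.12.

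Tap1 and Tap2 encode the 2 chains of the transporter that carries peptides into the endoplasmic reticulum for MHC class I. Tap2, Psmb8, Tap1 and Psmb9 follow each other as neighbouring protein-coding genes on chromosome 20 in the RefSeq annotation of GRCr8, and the promoter windows of Tap1 and Psmb9 share 44 bases, on opposite strands. The log2 signals of Tap1 were 8.67 and 9.42 in normal, 9.72, 11.29 and 9.89 in HFD, 10.14, 10.35 and 9.67 in QHD and 11.25, 10.49 and 10.30 in GC. No animal on the high fat diet was as low as either normal animal, but the changes of 1.25 ± 0.47, 1.01 and 1.63 ± 0.47 did not pass (adjusted p = 0.245 in HFD and 0.0549 in GC). The GC change of Tap1 did pass with a filter on signal at 8, with 32 added to the linear signals and with weights for the quality of each array. It also passed with only the groups compared, without HFD animal 36 and without QHD animal 47. A second probe set of Tap1, with means of 1.99 to 5.25 on the 4 groups, lay below the filter and gave the opposite sign in HFD against normal (-0.94). Tap2 had changes of 0.49, 0.49 and 0.90 and did not pass.

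**Figure D2:**
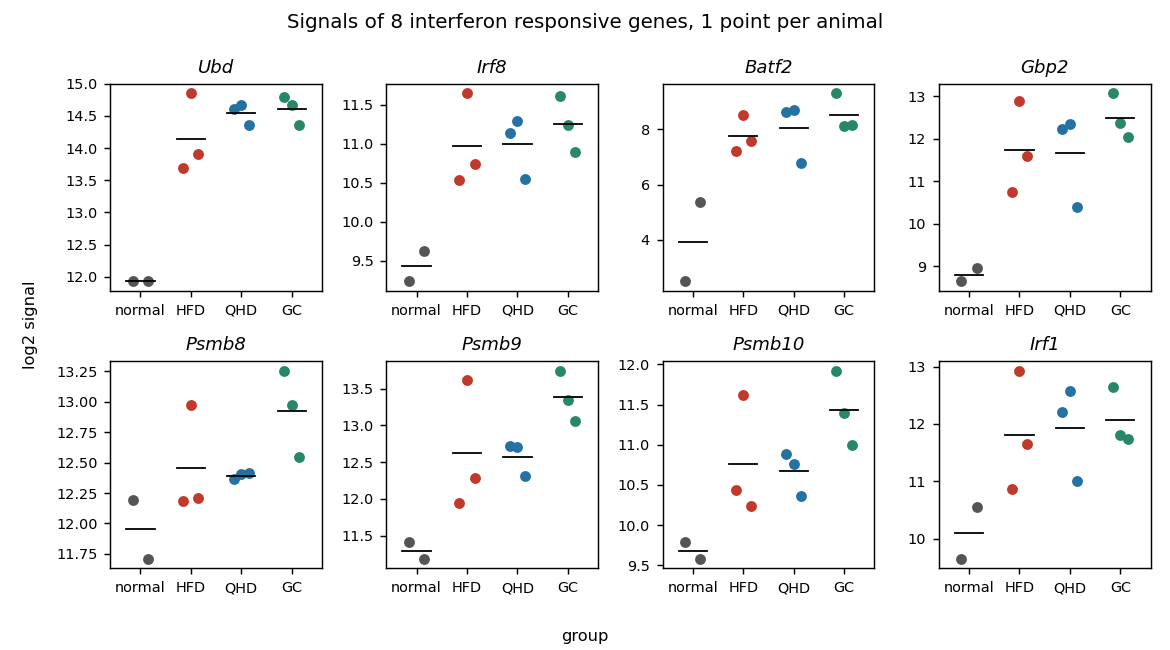
Each point is the log2 signal of 1 animal and each line the mean of its group, for Ubd, Irf8, Batf2, Gbp2, Psmb8, Psmb9, Psmb10 and Irf1 (the axes do not start at 0 and differ between the genes). The 9 animals on the high fat diet lie above the 2 normal animals in every panel but that of Psmb8, where 1 HFD animal lies just below a normal animal.

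Of the transcription factors, IRF8 is a regulator of monocyte and dendritic cell development that interferon gamma also induces in macrophages. Its log2 signals were 9.23 and 9.62 in normal, 10.54, 11.65 and 10.74 in HFD, 11.14, 11.29 and 10.55 in QHD and 11.62, 11.24 and 10.89 in GC. The groups on the high fat diet did not overlap with the normal group. Irf8 rose in QHD by 1.56 ± 0.34 (adjusted p = 0.0277) and in GC by 1.82 ± 0.34 (adjusted p = 0.0124), and in HFD its change of 1.55 ± 0.34 did not pass (adjusted p = 0.0751). The 3 changes differed from each other by less than their standard errors. The QHD call was lost without either normal animal, without QHD animal 45 or 46 and with all 12 arrays, and the GC call without normal animal 2. Without moderation of the variances both were lost. The HFD change passed without HFD animal 24 and with weights for the quality of each array.

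Batf2, a basic leucine zipper factor induced by interferon, had signals of 2.50 and 5.37 on the normal arrays, under the level of 6.66 that the filter required of a mean. The HFD arrays gave 7.20, 8.53 and 7.59, the QHD arrays 8.63, 8.69 and 6.77 and the GC arrays 9.31, 8.12 and 8.16. All 9 lay above that level. Batf2 rose in QHD by 4.09 ± 0.85 (adjusted p = 0.0239) and in GC by 4.60 ± 0.85 (adjusted p = 0.0117), and its change in HFD was 3.84 ± 0.85 (adjusted p = 0.0751). The size of these changes rests on 2 low signals that lie far apart, and over the alternatives it ran from 2.51 to 5.53 in QHD. Both calls were lost without normal animal 2, with all 12 arrays and without moderation of the variances. That in QHD was also lost without QHD animal 45 or 46. The HFD change of Batf2 passed without normal animal 4 and with weights for the quality of each array. It passed the filter through the groups in which it was high.

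Irf1, the factor that drives much of the interferon gamma response, had signals of 9.64 and 10.56 in normal, 10.87, 12.93 and 11.65 in HFD, 12.20, 12.58 and 11.01 in QHD and 12.65, 11.81 and 11.73 in GC. The groups did not overlap with normal, but none of the changes passed. They were 1.71 ± 0.61 in HFD (adjusted p = 0.222), 1.83 in QHD (adjusted p = 0.0977) and 1.96 in GC (adjusted p = 0.0740). The GC change of Irf1 did pass with only the groups compared, without HFD animal 36 and without QHD animal 47. The members that form or amplify the type I signal had changes on both sides of 0. Irf7, the master regulator of type I interferon genes, had changes of -0.43, -0.92 and -0.20, Irf9, the DNA-binding part of the type I complex, -0.14, -0.50 and -0.06, and Stat2 0.33, 0.12 and 0.54, and none of these passed.

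Among the inducible GTPases, which act against intracellular microbes, Gbp2 rose. Its log2 signals were 8.64 and 8.96 in normal, 10.75, 12.89 and 11.58 in HFD, 12.22, 12.35 and 10.40 in QHD and 13.07, 12.38 and 12.03 in GC. All 9 animals on the high fat diet lay above both normal animals, and in each of those groups the lowest and the highest animal differed by more than 1 on the log2 scale. Gbp2 rose in QHD by 2.86 ± 0.67 (adjusted p = 0.0351) and in GC by 3.69 ± 0.67 (adjusted p = 0.0110). In HFD the change of 2.94 ± 0.67 did not pass (adjusted p = 0.0774), and it did pass without HFD animal 24 or without QHD animal 47. In QHD the call was lost in 9 of 20 settings, among them those without either normal animal, QHD animal 45, QHD animal 46 or HFD animal 87. In GC it was lost without normal animal 2, with all 12 arrays and without moderation of the variances.

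Igtp and Irgm, GTPases of the immunity-related family, did not pass in any comparison. The signals of Igtp were 11.03 and 11.33 in normal, 11.53, 13.63 and 11.58 in HFD, 12.18, 12.42 and 10.58 in QHD and 13.49, 12.33 and 11.95 in GC. HFD animal 36 and GC animal 35 stood well above the others, and QHD animal 47 lay below both normal animals. The changes of Igtp against normal were 1.07, 0.55 and 1.41 and those of Irgm 0.62, 0.53 and 0.99. Its other probe set gave Igtp changes of 0.67, 0.57 and 0.85.

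Of the antiviral effectors none was called in any of the 6 comparisons. In HFD against normal 9 of the 11 tested had a change below 0, in QHD 9 and in GC 8, and the median changes were -0.24, -0.63 and -0.13. With the array labelled normal diet 3 included, the counts below 0 were 6, 9 and 5 and the medians -0.16, -0.33 and 0.03, so that the direction in GC turned. Without normal animal 4 they were 4, 7 and 4, with medians of 0.04, -0.27 and 0.18, and without HFD animal 87 the count in HFD was 6. Oas1a, a sensor of double-stranded RNA that activates RNase L, had signals of 11.46 and 10.91 in normal, 10.22, 9.88 and 8.18 in HFD, 9.62, 8.44 and 8.44 in QHD and 10.54, 9.59 and 8.36 in GC. Each of the 9 animals on the high fat diet lay below both normal animals. Its changes were -1.76 ± 0.70 in HFD (adjusted p = 0.285), -2.35 ± 0.70 in QHD (adjusted p = 0.0709) and -1.69 ± 0.70 in GC (adjusted p = 0.163). With only the groups compared, the QHD change passed. The Oas genes are a family of similar sequences, so some of this signal may come from its relatives. Oas1b, another of them, had signals of 2.04 to 4.73 on the 11 arrays and was not tested.

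Ifitm3 encodes a membrane protein that blocks the entry of enveloped viruses. Its signals were 13.45 and 13.57 in normal, 12.89, 12.85 and 12.14 in HFD, 12.87, 13.04 and 12.52 in QHD and 13.09, 12.57 and 12.88 in GC. The 9 animals lay below the normal animals, with changes of -0.88 ± 0.23 (adjusted p = 0.106), -0.70 ± 0.23 (adjusted p = 0.0957) and -0.66 ± 0.23 (adjusted p = 0.102). It did not pass here, but it did with weights for the quality of each array in HFD and GC, when HFD animal 87 was left out in QHD and GC, and when only the groups compared were fitted in QHD and GC. Its relatives Ifitm1 and Ifitm2, from the wider list of interferon-induced genes, had the opposite sign. Ifitm1 rose by 0.94 ± 0.24 in QHD (adjusted p = 0.0414) and by 0.96 ± 0.24 in GC (adjusted p = 0.0316), and Ifitm2 rose by 1.08 ± 0.26 in QHD (adjusted p = 0.0362).

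The Mx proteins are dynamin-like GTPases that trap viral particles. Mx2 had signals of 9.75 and 10.95 in normal, 10.13, 10.05 and 7.92 in HFD, 9.24, 8.13 and 7.01 in QHD and 10.57, 9.69 and 8.45 in GC. The QHD animals lay below both normal animals, the other groups overlapped with them, and the change of -2.22 ± 0.85 in QHD did not pass (adjusted p = 0.137). Mx1 had changes of -0.24, -0.89 and -0.01. Rsad2 (viperin), Eif2ak2 (the kinase PKR), Ifit2, Ifit3, Oasl and Isg20 had changes from -0.68 to 0.49 in the 3 comparisons and none passed. Bst2 (tetherin), which holds budding virus at the cell surface, had the smallest spread of the 37 genes within groups, with signals of 13.15 to 13.84 on all 11 arrays.

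The genes for RNA sensing and ubiquitin-like modification had changes below 0 for 6 of 6 in HFD and in QHD and 5 of 6 in GC, and none passed. Ubd is not among these 6, since it was placed with class I processing. With the array labelled normal diet 3 included, the counts below 0 were 1, 5 and 0, and the medians 0.08, -0.23 and 0.36. Without HFD animal 87 the count in HFD was 3, and in GC it was 2 without normal animal 4 or GC animal 55 and 3 without GC animal 37. Isg15, a ubiquitin-like protein joined to many targets after interferon, had signals of 9.97 and 10.63 in normal, 10.66, 10.49 and 8.09 in HFD, 10.01, 9.03 and 8.14 in QHD and 11.68, 9.68 and 8.68 in GC. The groups overlapped, and the range within HFD and within GC was larger than any difference between group means. Its changes were -0.56 ± 0.95, -1.24 ± 0.95 and -0.29 ± 0.95. Usp18, the protease that removes ISG15, had changes of -0.46, -0.76 and 0.07. Rtp4, a chaperone of receptors, had signals of 12.35 and 12.30 in normal and lower ones on all 9 other arrays (10.26 to 12.29), and its changes of -0.67, -1.23 ± 0.47 and -0.64 did not pass (adjusted p = 0.135 in QHD). Ifih1 (MDA5), Dhx58 (LGP2) and Trim25 had changes from -0.52 to -0.01.

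**Figure D3:**
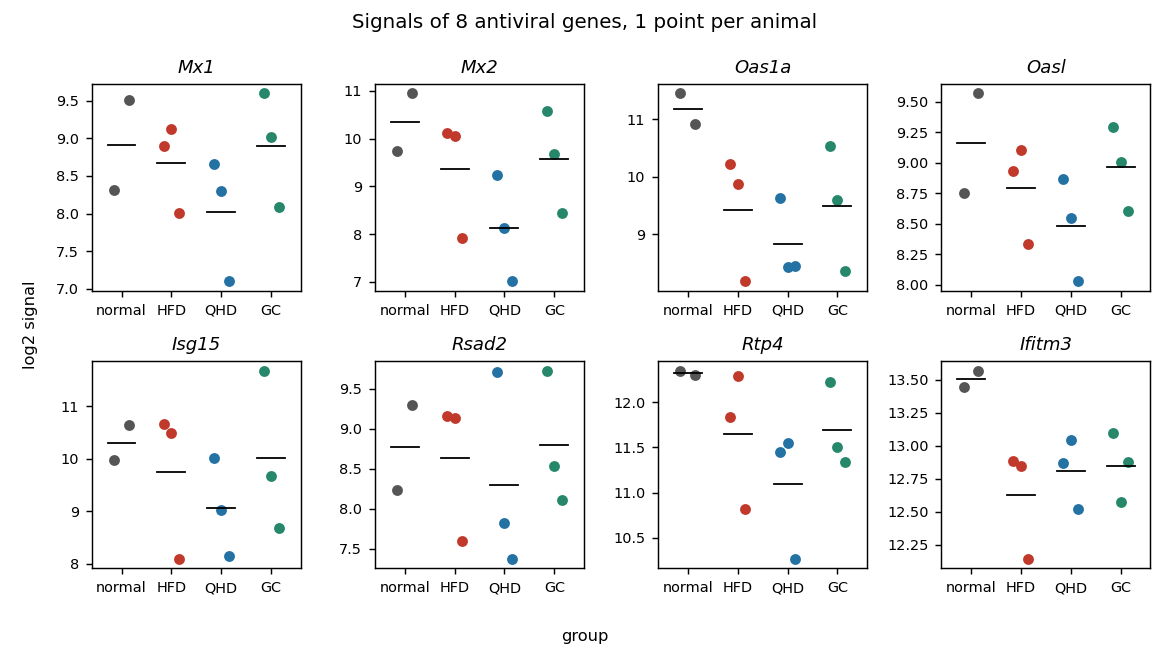
Each point is the log2 signal of 1 animal and each line the mean of its group, for Mx1, Mx2, Oas1a, Oasl, Isg15, Rsad2, Rtp4 and Ifitm3 (the axes do not start at 0 and differ between the genes). In Oas1a, Rtp4 and Ifitm3 the 9 animals on the high fat diet lie below the 2 normal animals, and in the other genes the HFD and GC animals overlap with the normal ones. These 3 are the only ones of the 37 genes wholly lower in HFD or in GC, where 10.8% and 17.3% of all genes were.

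Of the other induced proteins, none passed. Cxcl11, a chemokine that draws T cells through CXCR3, had signals of 10.96 and 11.19 in normal, 11.07, 12.77 and 11.28 in HFD, 12.13, 12.24 and 11.05 in QHD and 12.48, 11.62 and 11.30 in GC. Only the GC animals lay apart from the normal ones, and the changes were 0.63 ± 0.53, 0.74 ± 0.53 and 0.73 ± 0.53. Ifi35 had a change of 0.45 ± 0.17 in GC (adjusted p = 0.118), which passed without HFD animal 36. Parp14 had changes of -0.01, -0.02 and 0.33, and Ifi27 and Ifi44 had changes from -0.36 to -0.23.

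**Figure D4:**
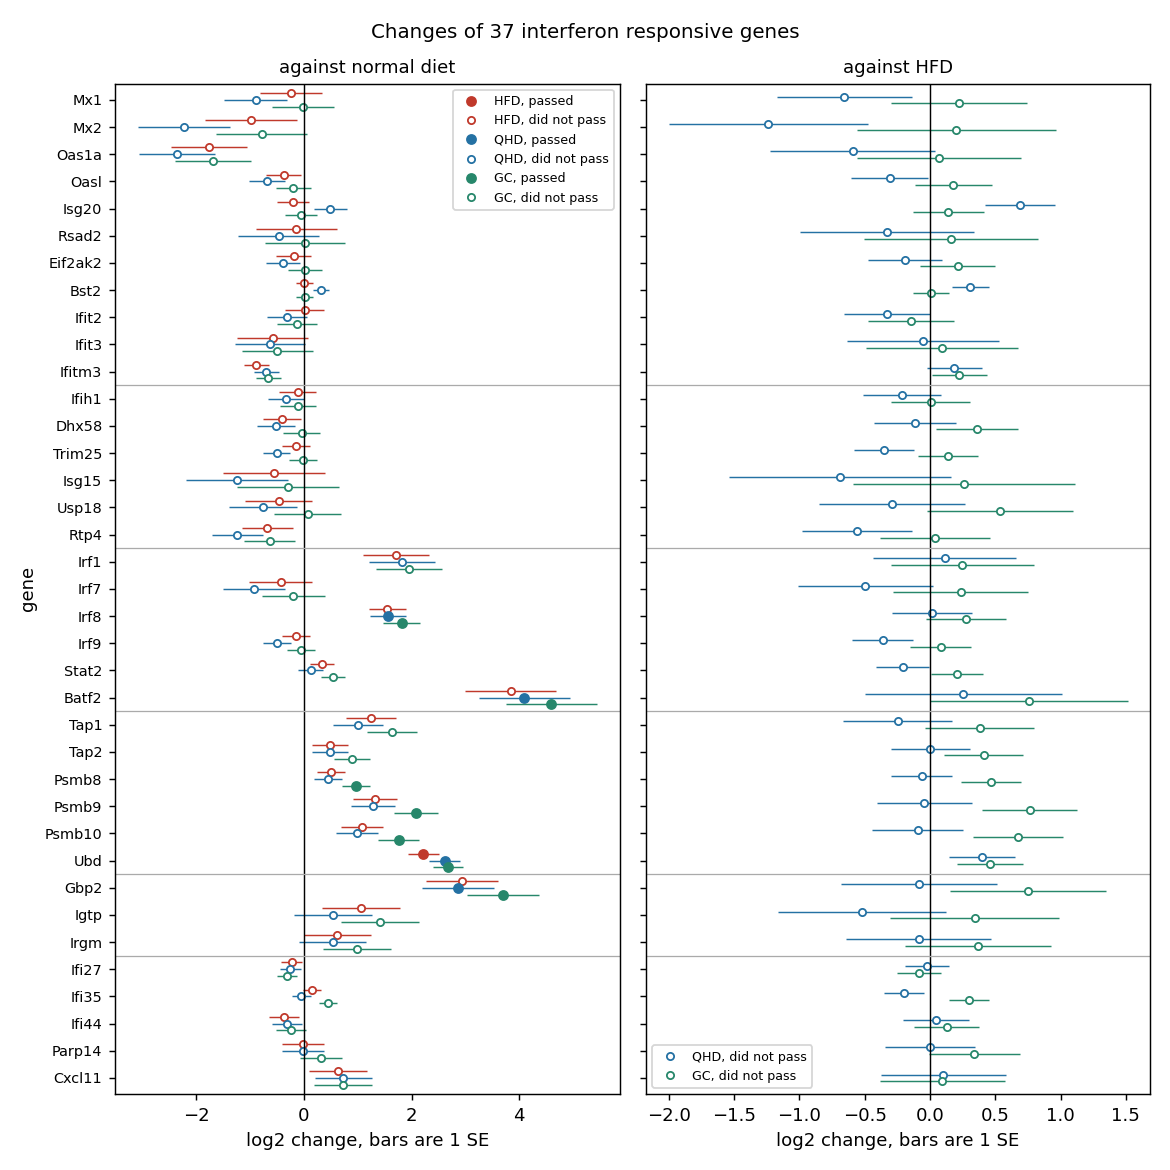
Points are fitted log2 changes of the 37 genes and bars are 1 SE, against the normal diet on the left and against HFD on the right, with filled points for genes that passed. The 12 filled points, all to the right of 0 and all against the normal diet, belong to Ubd, Irf8, Batf2, Gbp2 and the 3 Psmb genes.

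Whether the treatments moved these genes was addressed by the comparisons with HFD, where no gene passed. In QHD against HFD none of the 37 genes was called by limma, where 0.56% of all genes were, and 2 had an unadjusted p under 0.05. In GC against HFD none was called, where 0.0951% of all genes were, and none had an unadjusted p under 0.05. Without HFD animal 36, Ubd was called higher in QHD, and Psmb9 and Ubd in GC. With weights for the quality of each array, 4 genes were called higher in GC (Psmb8, Psmb9, Psmb10 and Ubd). With the array labelled normal diet 3 included, none was called in either comparison.

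The 95% intervals of the changes were wide for most of these genes. For QHD against HFD, Ubd had a change of 0.40 (95% interval -0.17 to 0.96), Irf8 0.02 (-0.66 to 0.70), Psmb9 -0.04 (-0.85 to 0.77), Gbp2 -0.09 (-1.42 to 1.25), Isg15 -0.69 (-2.58 to 1.21) and Mx2 -1.24 (-2.94 to 0.46). Changes of 1 in either direction lay outside the intervals of Ubd, Irf8 and Psmb9, while a change of -1 lay inside those of Gbp2, Isg15 and Mx2. Isg20, an exonuclease that degrades viral RNA, had the smallest p. Its signals were 7.41, 7.65 and 7.16 in HFD and 8.41, 8.09 and 7.79 in QHD, which did not overlap, and its change was 0.69 ± 0.27 (adjusted p = 0.311). It was the 1 gene of the 37 whose QHD animals all lay above the HFD animals, where 9.51% of all genes did so, and none lay wholly below, where 7.95% of all genes did.

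For GC against HFD, 35 of the 37 changes were above 0, with a median of 0.22 where that of all genes was 0.03. The groups overlapped in every one of the 37, where 7.66% of all genes were wholly higher and 5.85% wholly lower. Psmb9 had the largest change, 0.76 (95% interval -0.05 to 1.57, adjusted p = 0.592), followed by Batf2 with 0.76 (-0.93 to 2.44) and Gbp2 with 0.75 (-0.58 to 2.09). These signs are not independent of each other, since GC animal 35 was the highest of its group in 35 of the 37 genes. Without GC animal 35, 19 of the 37 changes were above 0, with a median of 0.02, and without HFD animal 87, 18 were, with a median of -0.02.

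The treatments were also set against each other, although QHD had a stated dose and the labels give none for the mixture. No gene passed in QHD against GC, where 0.275% of all genes did, and 2 had an unadjusted p under 0.05. Of the 37 changes 33 were below 0 and the median was -0.47, against -0.01 over all genes. Without GC animal 35 or without QHD animal 47, 27 were below 0, with medians of -0.15 and -0.20. No gene passed on all 12 arrays either. All 3 immunoproteasome subunits and Ifi35 had QHD animals wholly below the GC animals, where 9.31% of all genes did, and Isg20 had them wholly above, where 9.17% did. The change was -0.53 for Psmb8 (95% interval -1.05 to -0.02, adjusted p = 0.480), -0.81 for Psmb9 (-1.62 to 0.00118, adjusted p = 0.497), -0.77 for Psmb10 (-1.54 to 0.00472, adjusted p = 0.497) and -0.50 for Ifi35 (-0.83 to -0.16, adjusted p = 0.276). Mx2 had the largest, -1.44 (-3.14 to 0.25), and its other probe set, below the filter, gave the opposite sign with 1.24.

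Animals within a group differed more in these genes than in most. The median SD within groups, pooled over the 4 groups, was 0.498 for the 37 genes and 0.202 for all genes, and it ranged from 0.189 for Bst2 to 1.24 for Isg15. The same animals were high or low across many of the genes. HFD animal 36 was the highest of its group in 29 of the 37 and GC animal 35 in 35, where over all genes each was the highest in 37.1% and 36.9%. HFD animal 87 was the lowest of its group in 25, QHD animal 47 in 31 and GC animal 55 in 31, where over all genes they were the lowest in 25.1%, 31.3% and 34.9%.

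HFD animal 87 did not hold the same place in every role. It was the lowest HFD animal in 11 of 11 antiviral effectors and in 6 of 6 genes for RNA sensing and ubiquitin-like modification, yet in the lowest place in 2 of 6 class I genes and in none of the 3 GTPases. Set against the mean of the normal animals, its median log2 difference was -0.91 for the antiviral effectors and -1.26 for the sensing genes, but 0.70 for class I processing and 0.67 for the transcription factors. QHD animal 47 had -1.14, -1.13, 0.65 and 0.40 for the same roles. For the GTPases HFD animal 87 had 0.40 and QHD animal 47 had -0.15, and QHD animal 47 was the lowest QHD animal in 6 of 6 transcription factors, 5 of 6 class I genes and 3 of 3 GTPases. HFD animal 36 had 0.04 for the antiviral effectors, 0.11 for the sensing genes, 2.09 for class I processing and 2.45 for the GTPases. Such values describe single animals, and no test was made of them.

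**Figure D5:**
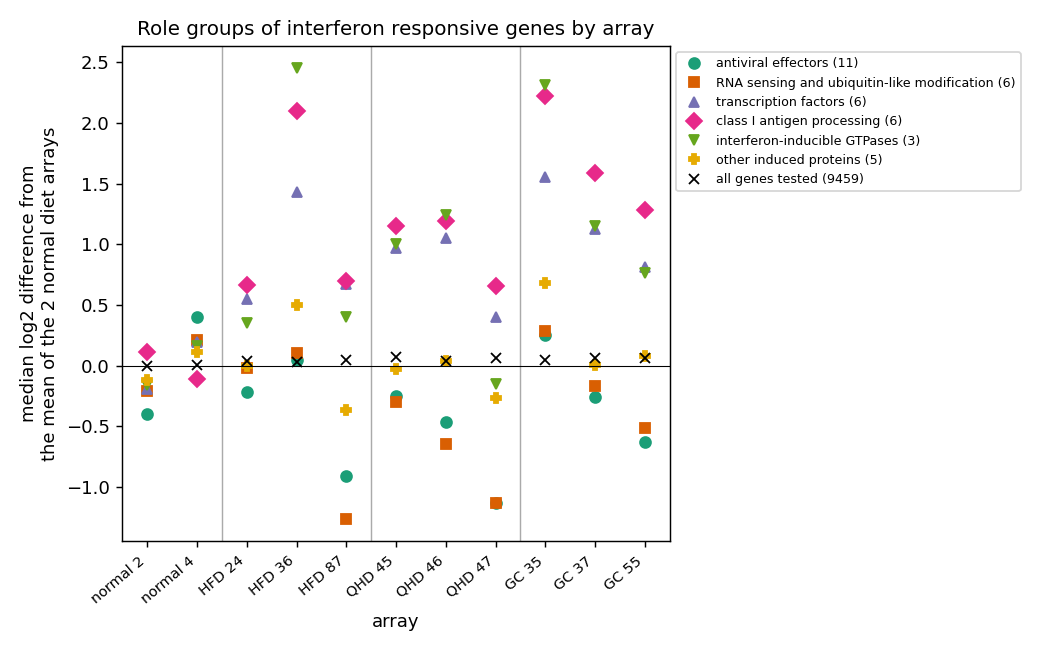
Each symbol is the median, over the genes of 1 role, of the log2 signal on 1 array minus the mean of normal animals 2 and 4, and crosses give the same over all 9459 genes. Class I processing and the transcription factors lie above 0 on all 9 arrays of the high fat diet, while the antiviral and RNA sensing genes lie below -0.9 in HFD animal 87 and QHD animal 47. The transcription factors were split, with 4 mean changes above 0 and 2 below in each comparison with normal.

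The upstream parts of the pathway were read from further lists of its genes. Of 8 tested ligands, receptors and kinases, Ifngr2, a chain of the interferon gamma receptor, rose by 0.72 ± 0.18 in QHD (adjusted p = 0.0390) and by 0.82 ± 0.18 in GC (adjusted p = 0.0190) against normal, and the other 7 did not pass in any comparison. Of 9 signal transducers and brakes, 1 rose (Irf5, by 0.85 ± 0.22) and 1 fell (Irf3, by 0.49 ± 0.10) in QHD, and 2 rose in GC, Irf5 by 1.16 ± 0.22 and the phosphatase Ptpn6 by 0.97 ± 0.18. Of 11 genes of nucleic acid and microbial sensing upstream of interferon, 3 rose in QHD and 4 in GC. Sting1, the adaptor for cytosolic DNA, rose by 2.01 ± 0.41 and 2.08 ± 0.41, Tlr4 by 1.37 ± 0.34 and 1.72 ± 0.34, Unc93b1, which carries nucleic acid receptors to endosomes, by 1.07 ± 0.22 and 1.42 ± 0.22, and Tlr7 in GC by 1.21 ± 0.23. None of these 3 lists had a call in HFD against normal. The shares of all genes that rose were 0.328% in HFD, 4.77% in QHD and 6.2% in GC. On all 12 arrays, Unc93b1 in GC was the 1 call left on these lists. No gene on them was called in the comparisons with normal when normal animal 2 was left out, and without normal animal 4 only Ptpn6, Tlr4, Tlr7 and Unc93b1 were, in GC.

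Of 45 other interferon-induced genes, 1 rose in HFD, 8 rose and 2 fell in QHD, and 11 rose and 1 fell in GC against normal, where 0.328%, 4.77% and 6.2% of all genes rose. On all 12 arrays, none was called in HFD or QHD and 4 rose in GC (Cxcl9, Gbp4, Plscr1 and Ifi30). Without normal animal 2 none rose in HFD or QHD and 3 rose in GC, and without normal animal 4 the numbers that rose were 0, 3 and 7. With any 1 animal left out they ran from 0 to 7 in HFD, the 7 being without HFD animal 24, from 0 to 11 in QHD and from 3 to 14 in GC. Plscr1 (phospholipid scramblase) rose by 1.42 ± 0.25 in HFD (adjusted p = 0.0367), by 1.51 in QHD and by 1.85 in GC. Cxcl9, a chemokine induced by interferon gamma, rose by 4.40 ± 0.70 in QHD and 3.57 ± 0.70 in GC. Ciita, the switch of MHC class II genes, rose by 1.97 and 2.41, Gbp4 by 2.13 and 2.53, Casp4 by 1.72 and 1.85, and Ifi30, a thiol reductase of antigen processing, by 0.84 and 1.00. Nmi, Lap3, Casp1 and Nlrc5, the transactivator of MHC class I genes, rose in GC, Nlrc5 by 1.37 ± 0.34. Tor3a fell by 1.50 ± 0.29 in QHD and by 1.26 ± 0.29 in GC, and Helz2 fell by 0.92 ± 0.24 in QHD.

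Of 15 other class I antigen processing genes, none passed in HFD, 1 rose in QHD and 5 rose in GC against normal, where 0.328%, 4.77% and 6.2% of all genes rose. On all 12 arrays Psme2 in GC was the 1 call left, without normal animal 2 there was none, and without normal animal 4 RT1-M3-1 in GC was the 1 call. With any 1 animal left out, 0 to 2 rose in HFD, 0 to 4 in QHD and 0 to 6 in GC. RT1-M3-1, a rat MHC class I gene, rose by 1.51 ± 0.33 and 1.81 ± 0.33. Psme2, a subunit of the proteasome activator that interferon gamma induces, rose in GC by 1.19 ± 0.23, RT1-CE5 by 1.59 ± 0.43, Tapbp (tapasin) by 0.76 ± 0.19 and Pdia3 by 0.40 ± 0.10. The RT1 genes are near copies of each other, so their probe sets may share signal. In the comparisons of QHD and GC with HFD and with each other, none of the genes on these lists passed. Without HFD animal 36, Cxcl9 was called higher in QHD and Psme2 in GC against HFD.

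Summed signals of cell type markers are set beside these results. A sum of linear signals is led by the markers with the strongest signals. The summed linear signal of 13 macrophage and Kupffer cell markers, of 17 listed, ranged from 50664 to 58282 in the normal group, 52546 to 85141 in HFD, 64654 to 74241 in QHD and 78099 to 81554 in GC. None of the 13 passed in HFD, 3 rose in QHD and 4 in GC, among them Cd68 and Lyz2. Against normal, changes were below 0 for 1 of the 13 in HFD, 3 in QHD and 4 in GC. Conventional dendritic cell markers (5 of 8 measured) summed to 453 to 643 in normal, 968 to 1914 in HFD, 1303 to 1706 in QHD and 1269 to 2591 in GC, T and NK cell markers (16 of 18) to 1802 to 2141, 2096 to 4237, 2755 to 3650 and 3173 to 4299, and B and plasma cell markers (7 of 11) to 1520 to 2030, 2611 to 5208, 2368 to 3054 and 2472 to 5976. Of the 4 conventional dendritic cell markers tested, 1 rose in QHD and 3 in GC against normal. Of the 9 T and NK cell markers tested, 1 rose in GC. Of the 5 B and plasma cell markers tested, 2 rose in QHD and 2 in GC. The B cell gene Fcrla rose in HFD. The HFD sums of macrophage and T and NK cell markers overlapped with those of the normal group. Neutrophil markers (6 of 11 measured) summed to 580 to 1051 in normal, 361 to 1150 in HFD, 619 to 1032 in QHD and 755 to 1574 in GC, and neither of the 2 tested was called. Plasmacytoid dendritic cell markers (3 of 8, among them the members Bst2 and Irf7) summed to 12972 to 13100, 10589 to 14788, 13716 to 17270 and 10724 to 16265, and none was called. Most of this sum is the signal of Bst2, itself an interferon responsive gene, so it is no separate reading of these cells. HFD animal 36 had the highest sum of its group for macrophages, conventional dendritic cells and T and NK cells, and GC animal 35 for conventional dendritic cells and T and NK cells. The shares of all genes that rose against normal were 0.328% in HFD, 4.77% in QHD and 6.2% in GC. The marker calls rest on the same 2 normal animals and were not recomputed with all 12 arrays or with an animal left out. None of these markers was at 0 on any of the 11 arrays.

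Markers of the other liver cells were read in the same way. Stellate cell markers summed to 7904 to 9507 in normal, 12424 to 12693 in HFD, 7896 to 11568 in QHD and 9361 to 10427 in GC. Of the 11 tested, 11 had a change above 0 in HFD against normal, and none was called. Hepatocyte markers had changes below 0 in 13 of 13 in QHD and in GC against normal, with medians of -0.24 and -0.13, and none was called. Endothelial markers summed to 13656 to 14186 in normal, 11482 to 12984 in HFD, 10626 to 13100 in QHD and 10075 to 12072 in GC, and none of the 8 tested was called. The part of all these cell type markers in the results was not tested, and in bulk liver fewer cells of a type and less RNA in each cell cannot be told apart.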

How the data were processed

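Log2 signals of 31099 probe sets on 12 arrays were deposited by the authors, who made them from 6 ug of total RNA with Affymetrix Expression Console and its MAS5 method, per the submitters' processing notes. Their versions are not given in the notes. The linear signals of each array have a trimmed mean close to 500 with 2% trimmed at each end, and both deposited tables hold the same values. The number of arrays limits the precision. Detection calls were not used here, so no signal was judged present or absent.

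Probe sets with 1 symbol were kept (20832, while 436 had several and 9831 none), the one with the highest mean stood for its gene, and genes were tested where their mean over 11 arrays exceeded 6.66, the median over every probe set. limma 3.58.1 in R 4.3.3 fitted 1 mean per group on the log2 scale, with a trend and robust moderation and 7 residual degrees of freedom. The fit was tested on simulated data with noise drawn independently for each gene, which does not cover genes that move together by animal. The alternatives tried were all 12 arrays, quantile normalization, no filter and one at 8, 32 added to the linear signals, array weights, no moderation, the compared groups alone, every probe set, and each animal left out. The counts of signs and of the other lists' calls with all 12 arrays, or with an animal left out, were added after the data were seen.

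The members and lists were chosen with earlier results of these data known. Genes were named where they passed, or had the smallest p or the largest change of their role in a comparison, and further members are given to complete a role.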

Additional observations from a re-analysis of the deposited data

Results flagged for a closer look

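Gbp2 had a log2 signal of 10.87 on the array labelled normal diet 3, which enters no comparison, against 8.64 and 8.96 on normal animals 2 and 4. It was looked at because it lies more than 1 above both. Of the 37 genes tested, 23 were below both other normal arrays on that array, 10 between them and 4 above both. Groups of 2 or 3 animals are too few to check for a single outlying animal.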

How the results depend on the processing

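No paired analysis was possible because the groups share no animal numbers. No called change reversed its sign in any alternative. The number of the 37 genes called in HFD against normal, 1 as reported, was 0 with all 12 arrays, without moderation and with only the compared groups, and 4 with array weights. In QHD against normal, 4 as reported, it was 0 with all 12 arrays and 1 without moderation. In GC against normal, 7 as reported, it was 2 with all 12 arrays and 1 without moderation. In GC against HFD, 0 as reported, it was 4 with array weights. With 1 animal left out, the counts ran from 0 to 3 in HFD against normal, 1 to 6 in QHD against normal, 1 to 10 in GC against normal, 0 to 1 in QHD against HFD, 0 to 2 in GC against HFD and 0 to 0 in QHD against GC. Ubd kept its call in 19 of 20 settings in QHD and in GC and in 16 of 20 in HFD against normal. Of 4183 recomputed changes that were not called as reported, 226 changed sign and 36 were called. Batf2 and Oas1b had the weakest signals of the members, and the size of their differences is limited by it.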
